A study of Mus musculus with 6 samples.

Results

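The 9 genes described here encode transcription factors that drive epithelial cells towards a mesenchymal state. They are the zinc finger repressors Snai1, Snai2, Zeb1 and Zeb2, the basic helix-loop-helix factors Twist1 and Twist2, the paired-related homeodomain factor Prrx1 and the forkhead factors Foxc1 and Foxc2. They were chosen by name, 9 of the 41128 features listed for each library, and all 9 were found. Expression was measured by RNA sequencing of mouse lenses at stage E13.5. The 3 Prox1 cKO libraries came from lenses with floxed Prox1 alleles and the MLR10Cre transgene (Prox1 f/f MLR10Cre+), in which Cre recombinase is made in lens cells. The 3 wild type libraries came from wild type lenses, and the labels give the strain C57Bl/6 for both groups. Each library was made from a pool of 30 lenses and is named in the labels as a biological replicate. No library of Cre alone or of floxed alleles alone was analysed here, so the effects of Prox1 loss and of the transgene cannot be told apart.

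In an epithelial-mesenchymal transition, cells lose the junctions that hold an epithelium together and gain motility and matrix genes. Snail and Zeb proteins bind the E-box CACCTG in promoters of epithelial genes, among them the cadherin gene Cdh1, and repress them together with corepressors. Twist proteins bind E-boxes as dimers with E proteins, and Id proteins take those partners away. In the embryonic eye, Twist1, Prrx1, Foxc1 and Foxc2 are known for their roles in the mesenchyme around the lens. Zeb2 is also made by lens cells, where it is needed for the lens vesicle to separate from the surface ectoderm. The lens itself stays epithelial, since its fibre cells elongate without leaving the lens capsule. Opacities of the adult lens epithelium are a known setting of such a transition.

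Total counts were 28391662, 10907877 and 9082219 in knockout libraries 1, 2 and 3, and lay between 20731491 and 21061582 in wild type libraries. Levels below are CPM (a count over its library size) scaled by TMM, a factor per library that allows for a few abundant genes taking a changed share of the counts. It matters here because the 16 crystallin genes took between 2.83% and 3.14% of the counts in Prox1 cKO lenses and between 13.2% and 22.7% in wild type lenses. Prox1 had 650.2, 727 and 707 CPM in Prox1 cKO libraries, against 922, 1214 and 1245 CPM in wild type libraries. Its log2 level fell by 0.70 (SE 0.141, edgeR adjusted p 0.00741), and the count includes any exon that Cre leaves in place. With libraries scaled by their total alone the log2 fold change of Prox1 was -0.34 and was not called (adjusted p 0.053). Of 12 lens markers tested, 11 fell and Pax6 rose, and none was at 0 in either group.

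Knockout library 3 had higher sums of markers of several tissues around the lens than the other knockout libraries. The 22 markers of periocular mesenchyme, none of which was at 0 over the libraries, summed to 1481, 1054 and 4394 CPM in knockout libraries 1, 2 and 3, against 884, 593 and 935 CPM in wild type libraries 1, 2 and 3. The 10 skeletal muscle markers summed to 8.75, 18.6 and 118 CPM in Prox1 cKO libraries and to 11.7, 15.4 and 32.3 CPM in wild type libraries. Pigment cell markers summed to 383, 282 and 771 CPM in Prox1 cKO lenses and to 206, 90.5 and 184 CPM in wild type lenses. Wild type library 1 in turn had the highest sum of erythroid markers, 2659 CPM, against 1467 and 789 CPM in wild type libraries 2 and 3. In pools of whole tissue, more cells of a type and more RNA per cell cannot be told apart. Each result on the 9 factors below is therefore given with knockout library 3 and without it, and the part of these tissues in it was not tested.

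The promoters of 3 members are shown, searched for the E-box CACCTG that the Snail and Zeb proteins bind. They are the 250 bases before the start annotated by RefSeq on GRCm38.p6, written 5′ to 3′ along the gene, with any CACCTG or its reverse complement CAGGTG in capitals.
Snai1 promoter, chr2:167537945-167538194, plus strand: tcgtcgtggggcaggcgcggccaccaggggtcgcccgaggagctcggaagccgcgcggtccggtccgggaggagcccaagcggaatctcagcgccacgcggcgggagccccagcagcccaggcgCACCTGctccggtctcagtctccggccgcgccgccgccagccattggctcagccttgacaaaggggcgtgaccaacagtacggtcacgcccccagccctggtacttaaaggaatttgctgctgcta
Twist1 promoter, chr12:33957421-33957670, plus strand: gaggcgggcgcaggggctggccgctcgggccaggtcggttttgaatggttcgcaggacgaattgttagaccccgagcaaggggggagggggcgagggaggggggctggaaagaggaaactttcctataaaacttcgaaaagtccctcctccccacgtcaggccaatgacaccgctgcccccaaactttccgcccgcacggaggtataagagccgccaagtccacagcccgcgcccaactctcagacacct
Prrx1 promoter, chr1:163313651-163313900, minus strand: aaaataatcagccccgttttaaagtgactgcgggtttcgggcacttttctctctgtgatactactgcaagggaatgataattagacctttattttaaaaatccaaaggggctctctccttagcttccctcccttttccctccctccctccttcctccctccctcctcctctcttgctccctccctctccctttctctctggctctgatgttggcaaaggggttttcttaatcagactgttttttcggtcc
Windows were at hand for 6 of the 9 members, 9 windows in all because Zeb2 has 4. The window of Snai1 held 1 CACCTG, which began 126 bases before the start, and the other 8 windows held none. This motif stood on either strand in 17.2% of 32851 promoter windows of the same length over all genes. The looser E-box CANNTG, which includes it, was also found in the window of Snai1 only, while 66.2% of all windows held it, and CATATG was in none of the 9 windows and in 3.5% of all. A match is a description of the letters and not a measured binding site.

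Of the 9 factors, 2 were higher in Prox1 cKO lenses past the test and none was lower. Snai2 rose 1.97-fold and Prrx1 rose 3.15-fold, while Snai1, Zeb1, Zeb2, Twist1, Twist2 and Foxc1 were not called and Foxc2 had no count. Over all 14271 features tested with the edgeR quasi-likelihood test, 4659 (32.6%) were called in either direction, 15.9% of the features higher and 16.8% lower, at an adjusted p below 0.05. The median log2 fold change was 0.86 for the 8 members tested and 0.04 for all features. At an unadjusted p below 0.05 there were 4 of the 8 members. At least 32.6% of all features, those called after adjustment, also passed that looser cut. All knockout libraries lay above all wild type libraries for 4 members, Snai2, Twist1, Twist2 and Prrx1, and for 24.4% of all features. Both calls were lost without wild type library 2 or wild type library 3. They stood without any 1 of the other 4 libraries. With libraries scaled by their total alone, all 8 members were called higher. The median of all features then moved to 0.39, with 5417 features higher and 945 lower, against 2263 and 2396 with TMM.

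**Figure D1:**
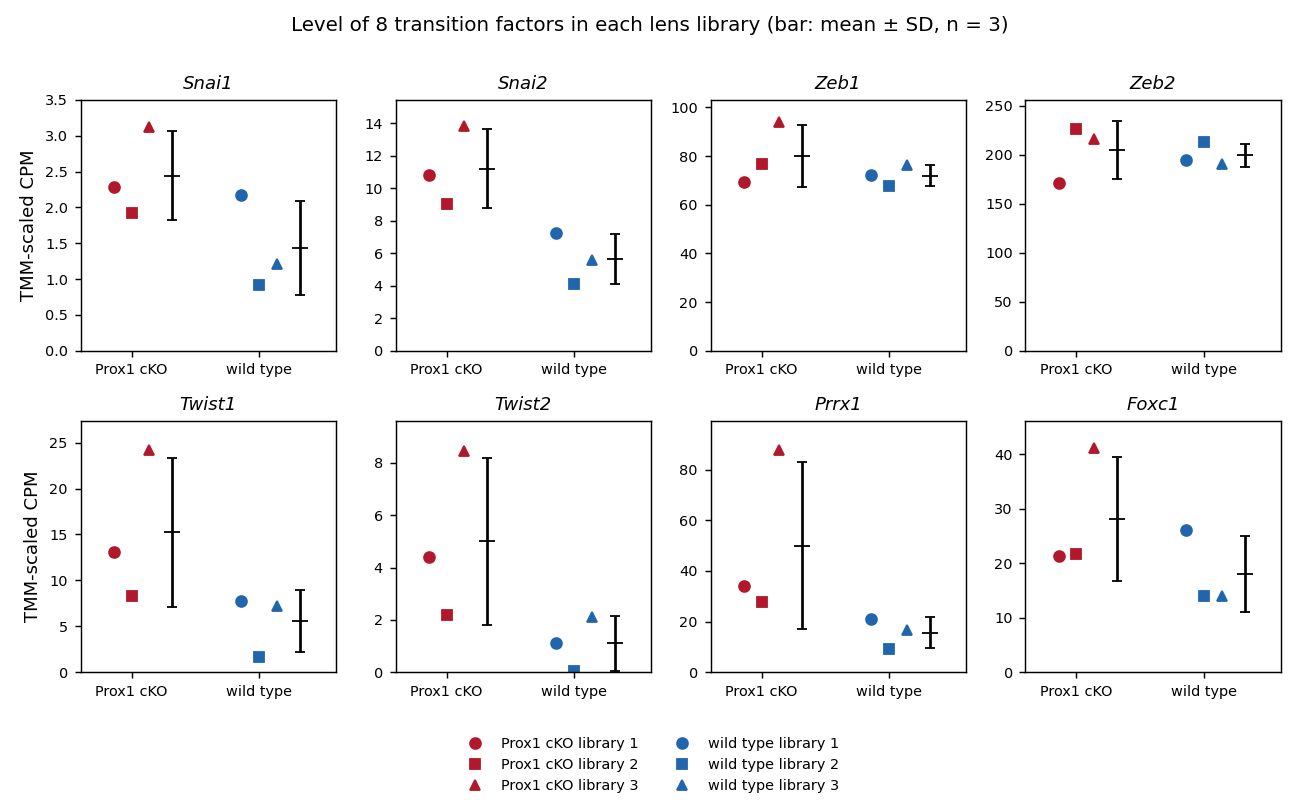
TMM-scaled CPM (y axis, from 0) of the 8 factors with counts in each of the 3 Prox1 cKO (red) and 3 wild type (blue) libraries, with mean and SD beside the points. Knockout library 3 (red triangle) was the highest of the 6 libraries for every factor shown except Zeb2, where knockout library 2 was highest.

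Snai2, which encodes the repressor Slug of neural crest and mesenchyme (ENSMUSG00000022676, GRCm38 chromosome 16, 14705852 to 14709385, plus strand), was higher in all 3 knockout pools. Its level was 10.8, 9.01 and 13.8 CPM in knockout libraries 1, 2 and 3, against 7.24, 4.12 and 5.58 CPM in wild type libraries 1, 2 and 3. Each knockout library was above each wild type library, and knockout library 3 was 1.39 times the mean of the other knockout libraries. The log2 fold change was 0.98 (SE 0.246, edgeR adjusted p 0.018), with 11.2 ± 2.42 CPM in Prox1 cKO lenses and 5.65 ± 1.56 CPM in wild type lenses (SD, n = 3 each). Without knockout library 3 it was 0.82 (SE 0.25, edgeR adjusted p 0.0474), which is 1.76-fold. The call was lost without wild type library 2 (adjusted p 0.0704) or wild type library 3 (0.0617).

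Snai1, which encodes the repressor Snail (ENSMUSG00000042821, chromosome 2, 167538195 to 167542814, plus strand), was 1 of the least abundant factors. It had 78, 23 and 31 counts in Prox1 cKO libraries and 45, 16 and 21 counts in wild type libraries. These are 2.29, 1.92 and 3.13 CPM in Prox1 cKO lenses and 2.17, 0.916 and 1.21 CPM in wild type lenses. Wild type library 1 lay above knockout library 2, so the groups overlapped. The log2 fold change of 0.74 (SE 0.367, edgeR adjusted p 0.149) was not called, and it was 0.56 without knockout library 3 (adjusted p 0.318). Without wild type library 1 it was 1.14 and passed (adjusted p 0.0373). Exact Poisson 95% intervals, which cover counting error only, were 1.22 to 2.88 CPM for knockout library 2 and 1.58 to 2.91 CPM for wild type library 1.

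Prrx1, a homeodomain factor of limb and craniofacial mesenchyme (ENSMUSG00000026586, chromosome 1, 163245119 to 163313710, minus strand), had the largest increase of the called factors. Its level was 34.0, 27.9 and 87.9 CPM in knockout libraries 1, 2 and 3, against 21.0, 9.16 and 16.8 CPM in wild type libraries 1, 2 and 3. Every knockout library was above every wild type library, and knockout library 3 was 2.84 times the mean of the other knockout libraries. The log2 fold change was 1.65 (SE 0.451, edgeR adjusted p 0.0246), with 49.9 ± 33.0 CPM in Prox1 cKO lenses and 15.7 ± 6.02 CPM in wild type lenses (SD, n = 3 each). Without knockout library 3 the knockout mean was 30.9 CPM and the log2 fold change 0.98 (SE 0.294, edgeR adjusted p 0.0438), which is 1.98-fold. The difference between the group means was 34.2 CPM with that library and 15.3 CPM without it. Without wild type library 2 or 3 the adjusted p was 0.0959 or 0.0702.

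Twist1, a basic helix-loop-helix factor needed for cranial neural crest (ENSMUSG00000035799, chromosome 12, 33957671 to 33959829, plus strand), varied widely inside both groups. It had 13.1, 8.34 and 24.2 CPM in Prox1 cKO libraries, against 7.77, 1.66 and 7.19 CPM in wild type libraries. The groups did not overlap, although knockout library 2 was close to wild type libraries 1 and 3, and wild type library 2 was far below every other library. The log2 fold change of 1.44 (SE 0.538, edgeR adjusted p 0.0697) was not called, and it was 0.97 without knockout library 3 (adjusted p 0.202). Knockout library 3 was 2.25 times the mean of the other knockout libraries. Twist1 passed with no filter on low counts (adjusted p 0.0168).

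Twist2, the closest relative of Twist1 and also a gene of dermal and craniofacial mesenchyme (ENSMUSG00000007805, chromosome 1, 91801461 to 91848028, plus strand), had the lowest level of the counted factors in wild type lenses. It had 150, 26 and 84 counts in Prox1 cKO libraries and 23, 1 and 37 counts in wild type libraries. The levels were 4.41, 2.17 and 8.47 CPM in Prox1 cKO lenses and 1.11, 0.0572 and 2.13 CPM in wild type lenses, so knockout library 2 and wild type library 3 were all but equal. The exact Poisson 95% interval of the single count in wild type library 2 was 0.00145 to 0.319 CPM, below that of each other library. The log2 fold change of 2.16 (SE 0.767, edgeR adjusted p 0.0594) was not called, and it was 1.63 without knockout library 3 (adjusted p 0.147). With no filter it passed (adjusted p 0.0125). Exons of the opposite-strand gene Gm29100 cover 46.5% of the exon bases of Twist2, and the library kit keeps no strand.

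Foxc1, a forkhead factor of periocular mesenchyme and the anterior eye (ENSMUSG00000050295, chromosome 13, 31806633 to 31812476, plus strand), stood high in 1 library of each group. It had 21.4, 21.6 and 41.1 CPM in Prox1 cKO libraries, against 26.1, 14.02 and 14.04 CPM in wild type libraries. Wild type library 1 was above knockout libraries 1 and 2. The log2 fold change of 0.62 (SE 0.32, edgeR adjusted p 0.167) was not called. It was 0.25 without knockout library 3 (adjusted p 0.52) and 0.94 without wild type library 1, where it passed (adjusted p 0.0423).

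Zeb1 and Zeb2, the large zinc finger repressors that bind paired E-boxes, had the smallest differences. Zeb1 (ENSMUSG00000024238, chromosome 18, 5591860 to 5775467, plus strand) had 69.4, 76.7 and 94.1 CPM in Prox1 cKO libraries, against 72.2, 67.6 and 76.2 CPM in wild type libraries. Its log2 fold change was 0.15 (SE 0.123, edgeR adjusted p 0.371) and 0.02 without knockout library 3 (SE 0.0999, adjusted p 0.891). Zeb2 (ENSMUSG00000026872, chromosome 2, 44983632 to 45117395, minus strand) had 171, 227 and 216 CPM in Prox1 cKO libraries, against 195, 213 and 191 CPM in wild type libraries. Its log2 fold change was 0.04 (SE 0.122, edgeR adjusted p 0.839), and its sign turned when single libraries were left out. For both genes the groups overlapped. With libraries scaled by their total alone, Zeb1 stood 0.10 above the median log2 fold change of all features and Zeb2 0.01 below it (-0.01). The opposite-strand gene Zeb2os shares 3.3% of the exon bases of Zeb2 and had between 13 and 61 counts a library.

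Foxc2, the partner of Foxc1 in periocular mesenchyme (ENSMUSG00000046714, chromosome 8, 121116171 to 121118895, plus strand), was listed at 0 counts in every library. The gene lies inside the annotated span of Gm20388 (119910841 to 124345722, same strand), which also had no count, although their exons share no base in the annotation used. The 71 protein-coding genes inside that span had a median of 303 counts over all 6 libraries, and 8 of them were at 0. They ranged up to 8626 counts for Cox4i1, a subunit of the respiratory chain. Rpl13, a ribosomal protein gene inside the span, had 288 counts, against a median of 5976 for 42 other Rpl genes, of which 5 were lower than Rpl13. Whether the 0 of Foxc2 comes from the tissue or from the counting was not tested.

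**Figure D2:**
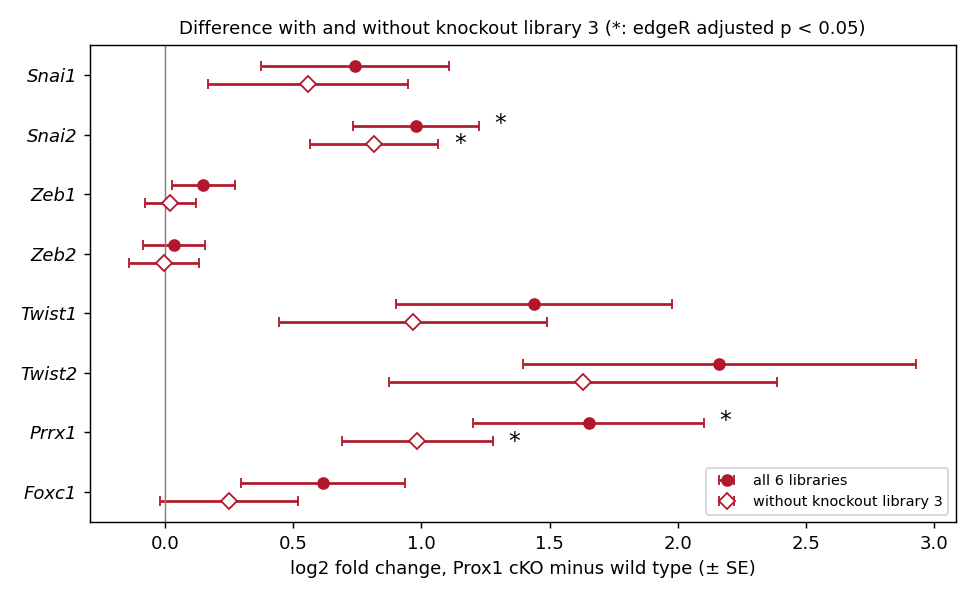
Log2 fold change (x axis, Prox1 cKO minus wild type, bars SE) of the 8 tested factors from all 6 libraries (filled circles) and without knockout library 3 (open diamonds), with an asterisk where the edgeR adjusted p was below 0.05. Snai2 and Prrx1 passed in both fits, at 0.98 and 0.82 for Snai2 and at 1.65 and 0.98 for Prrx1.

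To separate a change shared by the knockout libraries from the excess of library 3, the comparison was repeated without that library. The same 2 genes, Snai2 and Prrx1, were then called higher and none lower. Over the 14465 features tested in that fit, 11.9% were called higher and 14.2% lower. The median log2 fold change of the 8 members was 0.69, and that of all features was 0.04. Knockout library 3 was the highest knockout library for 7 of the 8 members and for 36% of all features. It was at least 1.5 times the higher of knockout libraries 1 and 2 for 4 members, Twist1, Twist2, Prrx1 and Foxc1, and for 6.99% of all features. The median log2 excess over the mean of libraries 1 and 2 was 0.75 for the members and -0.02 for all features. This excess rests on 1 library and has no replicate check. In wild type lenses, library 1 was at least 1.5 times the higher of libraries 2 and 3 for 2 members, Snai1 and Foxc1, and for 5.09% of all features. Foxc1 was the member with both excesses, which 1.04% of all features had.

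**Figure D3:**
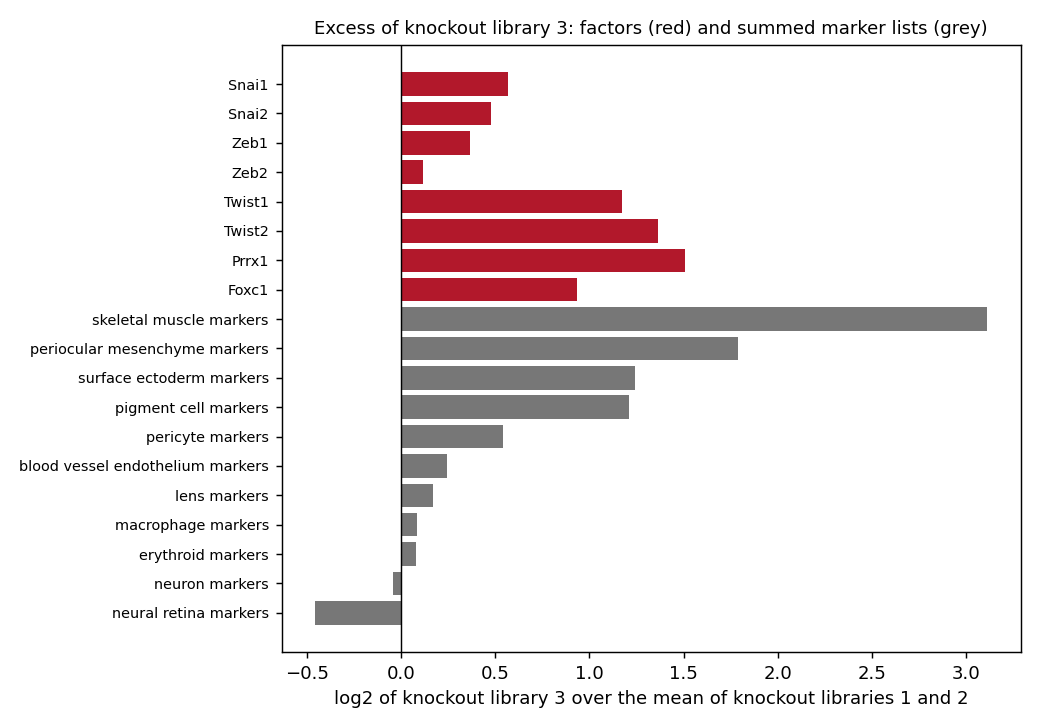
Log2 ratio of knockout library 3 to the mean of knockout libraries 1 and 2 (x axis) for 8 factors (red) and for the summed CPM of marker lists of other tissues and of lens (grey). Prrx1 (1.51), Twist2 (1.37), Twist1 (1.17) and Foxc1 (0.94) had the largest ratios of the factors, between the pericyte list (0.54) and the periocular mesenchyme list (1.79). The pigment cell list (1.21) and the surface ectoderm list (1.24) also lay in that interval, and the skeletal muscle list (3.11) lay above it.

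The sum of the periocular mesenchyme markers was higher in each knockout library than in each wild type library, and highest in knockout library 3. Over all features tested, 15.9% were called higher and 16.8% lower, and 11.9% and 14.2% without knockout library 3. Of the 20 markers tested, 6 rose and none fell, with a median log2 fold change of 1.42. Without knockout library 3 none rose and 1, Col6a3, fell, and the median was 0.57. Library 3 was at least 1.5 times the next knockout library for 17 of the 20 and for 6.99% of all features. The collagen gene Col1a1 rose to 312, 199 and 1304 CPM in Prox1 cKO libraries, against 92.4, 43.7 and 159 CPM in wild type libraries (log2 2.62, SE 0.722, edgeR adjusted p 0.0256). The matrix gene Postn (log2 1.97), the proteoglycan gene Dcn (1.91) and Col1a2 (1.90) also rose, with adjusted p between 0.0214 and 0.0341. Without knockout library 3 Col1a1 (log2 1.38), Dcn (1.37), Col1a2 (1.04) and Postn (0.94) narrowly missed the threshold, with edgeR adjusted p between 0.0546 and 0.0595. In that fit Snai2 (log2 0.82, edgeR adjusted p 0.0474) and Prrx1 (0.98, 0.0438) narrowly passed it. The eye mesenchyme factor gene Lmx1b (log2 1.02, edgeR adjusted p 0.118) was not called.

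Set against the summed mesenchyme markers, a scale chosen after the values were seen, Prrx1 varied little among libraries. It had 22.9, 26.4 and 20.0 CPM per 1000 CPM of these markers in knockout libraries 1, 2 and 3, against 23.8, 15.5 and 17.96 in wild type libraries. The highest library was 1.71 times the lowest on this scale and 9.60 times the lowest in level. The spread was also narrower on this scale for Twist1, Twist2 and Snai2. It was not narrower for Snai1 (3.46 times on this scale and 3.41 in level), Foxc1 (3.15 and 2.93), Zeb1 (5.32 and 1.39) or Zeb2 (7.30 and 1.32). Twist1 had 8.87, 7.92 and 5.51 per 1000 CPM in Prox1 cKO lenses and 8.79, 2.80 and 7.69 in wild type lenses. Snai2 had 7.30, 8.55 and 3.14 in Prox1 cKO lenses and 8.19, 6.95 and 5.97 in wild type lenses, so knockout library 3 was the lowest library. For Prrx1, Twist1, Twist2, Snai1, Snai2, Foxc1 and Zeb2 the groups overlapped on this scale. For Zeb1 all knockout libraries lay below all wild type libraries, at 46.9, 72.7 and 21.4 per 1000 CPM in Prox1 cKO lenses against 81.7, 114 and 81.5 in wild type lenses. The level of Zeb1 was not called, and the marker sum it was divided by was higher in each knockout library than in each wild type library, so nothing is read from this order.

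**Figure D4:**
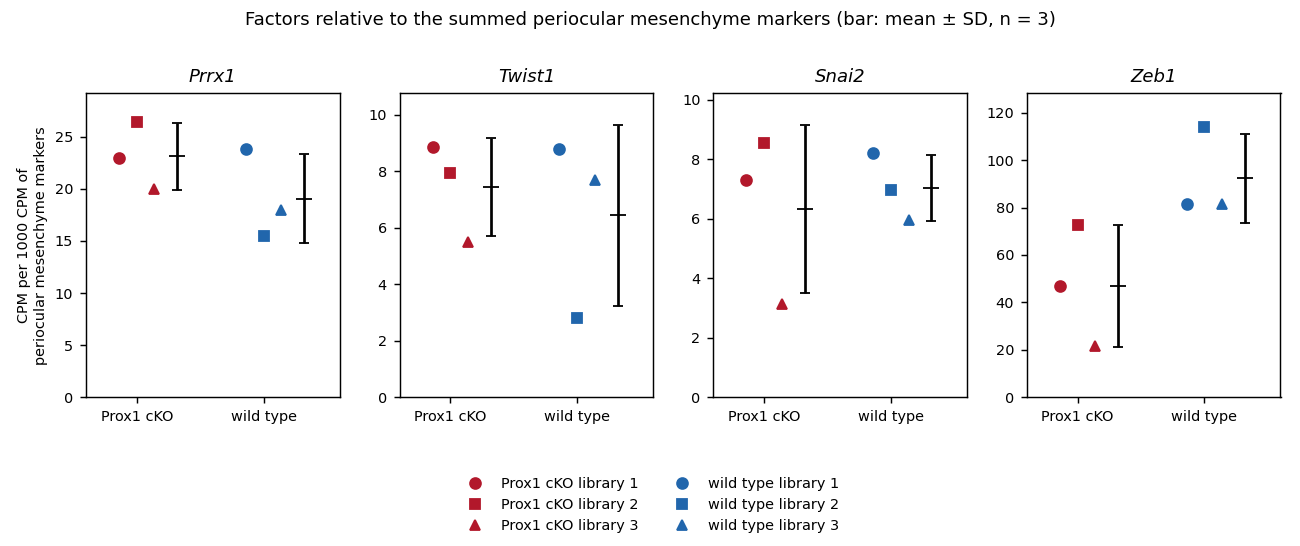
CPM of 4 factors per 1000 CPM of the 22 periocular mesenchyme markers (y axis, from 0) in each library, with mean and SD beside the points. Prrx1 lay between 15.5 and 26.4 in all 6 libraries, and Zeb1, whose level was not called, between 21.4 and 114.

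Other tissues that hold these factors were read beside the members, and beside the shares of all features called, 15.9% higher and 16.8% lower. Without knockout library 3 these shares were 11.9% and 14.2%. DESeq2 called 2307 of 14271 features higher, and edgeR called 2401 of 14605 higher without wild type library 1. Pigment cell markers rose in 7 of 9 cases and by a median log2 of 1.74, while without knockout library 3 there were 5 that rose and 1, Mitf, that fell by 0.60. Of 7 pericyte markers, 4 rose and none fell, and 1 rose without knockout library 3, where the median log2 fold change was 0.72 against 0.70 with it. Of 13 endothelium markers, Cldn5 rose and none fell, also without knockout library 3, but 6 were called higher by DESeq2 and 10 without wild type library 1. None of the 12 macrophage markers was called by edgeR or limma-voom, with 1 at an unadjusted p below 0.05, against at least 32.6% of all features. DESeq2 called 1 of them higher, and edgeR called 4 higher without wild type library 1. Of 9 neural retina markers 4 rose and none fell, in numbers that were equal without knockout library 3, and their sum was lowest in knockout library 3 of the knockout pools. In surface ectoderm, 7 of 8 markers rose, among them the keratin genes Krt14 (log2 3.53) and Krt15 (2.83), and 3 rose without knockout library 3. Krt14 had 2, 5 and 3 counts in wild type libraries and at most 3.33 CPM in any library. The neural crest factor gene Sox10 had 1.53, 0.751 and 2.02 CPM in Prox1 cKO lenses and 0.917, 0.0572 and 0.23 CPM in wild type lenses and was not called (log2 1.75, adjusted p 0.0852). The part of these cells in the levels of Snai2 and Twist2 was not tested.

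Compared per length, by the authors' RPKM, Zeb2 was the most abundant factor and Twist2 and Snai1 the least. RPKM carries no TMM scaling, so the order is read within each group and the groups are not compared by it. The lengths behind it ran from 1.62 kb for Twist1 to 19.7 kb for Zeb2. In Prox1 cKO lenses the mean RPKM was 11.7 ± 1.14 for Zeb2, 10.6 ± 5.39 for Twist1, 8.91 ± 1.09 for Zeb1, 7.95 ± 2.97 for Foxc1, 6.23 ± 1.28 for Snai2 and 5.04 ± 3.18 for Prrx1 (SD, n = 3). Twist2 (1.78 ± 1.09) and Snai1 (1.70 ± 0.403) came last. In wild type lenses it was 8.998 ± 0.822 for Zeb2, 6.32 ± 0.696 for Zeb1, 4.15 ± 2.03 for Foxc1, 3.10 ± 2.00 for Twist1, 2.50 ± 0.916 for Snai2 and 1.28 ± 0.587 for Prrx1. Snai1 (0.806 ± 0.45) and Twist2 (0.307 ± 0.274) were again the lowest. In Prox1 cKO lenses the ranges over libraries of every pair of neighbours in this order overlapped, and Twist1 ranged from 5.67 to 16.4 RPKM. In wild type lenses the ranges of Zeb2 and Zeb1 did not overlap, and those of all other neighbours did.

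Genes that mark the mesenchymal end of the transition moved both ways. Of all features, 15.9% were called higher and 16.8% lower, and 11.9% and 14.2% without knockout library 3. Of the 15 measured genes of this list the test called 7 higher and 2 lower, and without that library 5 and 2. The largest increase was that of the matrix gene Tnc (log2 4.94, edgeR adjusted p 4.4e-05), followed by Lox, which encodes an enzyme that crosslinks collagen (2.41), Spp1 (2.02) and Acta2 (1.93). Acta2, the smooth muscle actin of myofibroblasts, had 32.9, 30.5 and 35.2 CPM in Prox1 cKO libraries, against 7.82, 9.61 and 8.40 CPM in wild type libraries, and was even within each group. Lox had 25.1, 15.9 and 132 CPM in Prox1 cKO lenses, against 11.2, 6.70 and 14.2 CPM in wild type lenses, and was not called without knockout library 3 (adjusted p 0.0567). The intermediate filament gene Vim fell by 0.57, with 1750.0, 1552 and 1490.0 CPM in Prox1 cKO libraries against 2233, 2338 and 2527 CPM in wild type libraries. S100a4, which encodes a calcium-binding protein, fell by 4.05. The cadherin gene Cdh2 (log2 -0.14) and Fn1 (0.92), which encodes fibronectin, were not called (adjusted p 0.352 and 0.123), and Fn1 had 957 CPM in knockout library 3 and at most 417 CPM elsewhere.

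Epithelial junction genes, which Snail and Zeb proteins are known to repress, moved both ways too. The test called 6 of 14 higher and 3 lower, and without knockout library 3 the numbers were 2 and 3. The shares of all features were 15.9% higher and 16.8% lower, and 11.9% and 14.2% without that library. Cdh1, which encodes E-cadherin, had 302, 335 and 297 CPM in Prox1 cKO libraries, against 148, 211 and 215 CPM in wild type libraries. Its log2 fold change was 0.70 (SE 0.149, edgeR adjusted p 0.00913). The desmosome gene Dsp (log2 2.11), the claudin gene Cldn6 (1.63), the adhesion gene Epcam (1.24) and the tight junction gene Ocln (1.201) also rose. Without knockout library 3 these 4 were not called (adjusted p 0.052 to 0.0805), with log2 fold changes of 1.23 for Dsp, 1.49 for Cldn6, 1.23 for Epcam and 0.96 for Ocln. Cldn6 had at most 1.41 CPM and Ocln at most 3.02 CPM in any library. Cldn1 (log2 1.05), named after its value was seen, passed in both fits. The scaffold gene Tjp1 fell by 1.29 and the desmosome gene Pkp2 by 1.33, with groups that did not overlap, and the polarity gene Llgl2 fell by 0.62. Of 8 epithelial splicing and identity factors tested, Esrp2 rose (log2 2.26, adjusted p 0.0349) and none fell. Without knockout library 3 the log2 fold change of Esrp2 was 1.58 and missed the threshold (edgeR adjusted p 0.0862). Esrp2 had at most 4.44 CPM in any library.

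In the TGF-beta pathway, a known inducer of these factors in lens epithelium, 5 of 16 tested genes rose and 1 fell, the same numbers as without knockout library 3. Tgfbi, a matrix gene induced by TGF-beta, rose most (log2 1.85, edgeR adjusted p 0.0243), and its level of 42.6 CPM in knockout library 3 was far above 11.1 and 12.01 CPM in knockout libraries 1 and 2. The inhibitory Smad gene Smad7 rose by 0.68, the signal transducer gene Smad3 by 0.52 and the receptor gene Tgfbr1 by 0.41. The ligand gene Tgfb2 had 265, 331 and 297 CPM in Prox1 cKO lenses and 239, 242 and 254 CPM in wild type lenses, and was not called (log2 0.28, adjusted p 0.0755). The target gene Ctgf fell by 0.55. The counts of 5 and 1 of 16 stand beside shares of 15.9% higher and 16.8% lower over all features, and of 11.9% and 14.2% without knockout library 3.

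Among the partners of the factors, Id2 had the largest difference. Of 7 genes for E proteins and Id proteins, 3 rose and 1 fell, also without knockout library 3. Id2, whose protein keeps E proteins from DNA, had 74.8, 60.3 and 66.9 CPM in Prox1 cKO libraries, against 247, 289 and 255 CPM in wild type libraries (log2 -1.97, SE 0.116, edgeR adjusted p 5.1e-05). Id3 rose by 0.53, and the E protein genes Tcf4 and Tcf3 rose by 0.49 and 0.35. Of 15 genes for corepressors and for regulators of the stability of Snail proteins, 3 rose and 2 fell, and without knockout library 3 the numbers were 4 and 1. Over all features 15.9% were called higher and 16.8% lower, and 11.9% and 14.2% without knockout library 3. No change of either list as a whole is therefore read from these counts. The deubiquitinase gene Usp13 rose by 0.80, the histone methyltransferase gene Ezh2 by 0.55 and the corepressor gene Ctbp1 by 0.33, while Limd1 fell by 0.38 and Ctbp2 by 0.36. With libraries scaled by their total alone, none of the corepressor genes was called lower and 10 were called higher, and the TGF-beta genes were split 11 and 0. Of all 14271 features tested, 5417 were then called higher and 945 lower, so nothing is read from these counts either.

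The members differed in the pattern they followed across the 6 libraries. Pearson correlations of log2 CPM between pairs of the 8 members, over 6 libraries that share the group difference and library 3, lay between -0.20 and 0.98 with a median of 0.81 over 28 pairs. Twist1 and Twist2 were the most alike (0.98), and all 7 pairs with Zeb2 were at or below 0.43. Among 9486 other genes of at least 10 CPM, those most like each member included Cdh11 and Cep192 for Snai1, Ssc5d and Krt18 for Snai2, Col8a2 and Dkk2 for Twist1, and Matn4 and Inpp4a for Twist2. They also included Cacna1g and Ddr2 for Prrx1, Ephb2 and Hspa12a for Foxc1, Ubr2 for Zeb1, and Mlh3 and Map4k4 for Zeb2, with r of at least 0.979 in each case. Between 5 (Zeb2) and 290 (Snai2) genes had an r above 0.95, so the order among the most alike genes is not sharply set by 6 libraries. Col8a2, a collagen gene of the cornea, had 51.1, 34.3 and 94.95 CPM in Prox1 cKO libraries and 23.7, 5.95 and 24.3 CPM in wild type libraries, with the same order of libraries as Twist1 in Prox1 cKO lenses.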

How the data were processed

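Counts were deposited for lenses of 2 groups with 3 libraries each, made from polyadenylated RNA with a TruSeq kit that keeps no strand and sequenced as single-end reads of 51 bp, per the labels' protocols. Per the file headers, the deposited tables list raw counts with CPM and RPKM. The authors' CPM equals the raw count over the library total within 1e-06 for the features kept, and the authors' RPKM equals CPM over 1 length per feature. Per the submitters' processing notes, the build was GRCm38 and edgeR was used. Aligner, counting program and gene annotation: not given in the sources used here. Of 41128 features, 26 whose deposited count and CPM did not match were left out.

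Raw counts were analysed in R 4.3.3 with filterByExpr (minimum count 10), TMM and the quasi-likelihood test of edgeR 4.0.16, Prox1 cKO against wild type with no other term, adjusted by Benjamini-Hochberg over all 14271 features tested (threshold 0.05). SEs are the log2 fold change over the root of the F statistic. Log2 CPM for correlations used a prior count of 2. The fit was tested on simulated data. Alternatives were DESeq2 1.42.0, limma 3.58.1 (voom, and trend on deposited CPM), other scalings and filters, a replicate block and each library left out. Coordinates are those of GENCODE release M21 on GRCm38. The labels do not say how litters were divided among pools, so the spread behind each p-value is that between pools and may be partly technical. Counting intervals cover counting error only, and 3 counts, which a count of 0 allows, are between 0.106 and 0.33 CPM.

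The genes named are the 9 members, Prox1, up to 4 called genes per list and direction by size of change, and the 2 genes most like each member, of which 1 is not reported here. Other list genes are given by their values. The members and lists were chosen with earlier results of these data known. Of the listed names, Lim2, Patj and Dub3 had no usable feature, and Fbxl14 and Sox2 were at 0.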

Additional observations from a re-analysis of the deposited data

How the results depend on the processing

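No member was called lower under any of the 17 alternatives. The number called higher, 2, was 8 with library totals as the scale or with deposited CPM and limma-trend at either pseudocount, 4 with no filter, 4 with a replicate block, and between 0 and 4 when 1 library was left out (0 without wild type library 2 or 3, 4 without wild type library 1). Without knockout library 3 it was 4 with library totals and 4 with no filter, against 2. Of all features, 5417 were called higher with library totals, 5487 and 5489 with deposited CPM, 2404 with no filter and 2020 with a replicate block, against 2263. There were 2401 without wild type library 1, 836 without wild type library 2 and 952 without wild type library 3. The count of all called genes, 4659, lay between 2267 and 5318 when 1 library was left out, with 2267 without wild type library 2 and 2475 without wild type library 3. Snai2 (log2 0.77 to 1.16) and Prrx1 (0.98 to 1.94) kept their direction without any 1 library and passed under all 11 other alternatives. Zeb2 lay between -0.045 and 0.149 without any 1 library, with the sign turned at -0.045, -0.0041, -0.023 and -0.02 without knockout library 2, knockout library 3, wild type library 1 and wild type library 3. Prox1 was not called with library totals (-0.34, adjusted p 0.053) or with deposited CPM at a pseudocount of 1 (-0.33, 0.0547). The cause of these changes was not tested. Same-numbered libraries deviated from their group means with correlations of -0.03, 0.25 and 0.11, and 4 of the 6 correlated best with their own number. These values do not settle whether the numbers are pairs. The main fit did not pair them because no shared litter or day is stated. With the replicate block Twist1 (log2 1.53, adjusted p 0.0153) and Twist2 (2.36, 0.0132) also passed. Counting error was widest for Snai1 and Twist2, which had 16 counts and 1 count in wild type library 2.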
